A study of Mus musculus with 6 samples.

Results

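The 39 genes described here encode parts of the lysosome: 11 glycosidases, 3 sulfatases or sulfamidases, 4 enzymes that act on lipids or proteins, 4 activators, lipid carriers and soluble cofactors, 9 membrane proteins, 7 subunits or accessory proteins of the vacuolar proton pump (V-ATPase), and the transcription factor Tfeb. They were chosen by function from a list of gene symbols, and each was represented by its brightest probe set carrying that 1 symbol, out of 18193 genes with such a probe set. Of the 39, 38 could be measured in this way. The level of the tetraspanin Cd63 is not analysed here because no probe set was listed under its symbol alone. All 38 lay above the median of their array on all 6 arrays and so were among the 10807 genes tested.

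The samples were myeloid cells of bone marrow, taken from tibia and femur of HdcGFP females, which report the activity of Hdc, the gene of the histamine-making enzyme histidine decarboxylase, by green fluorescence. Both groups came from these reporter mice on a C57BL/6 background (written C57/BL6 for some samples), and no treatment is named. GFP_plus (3 samples) holds CD11b+Gr1+ cells with positive or high reporter signal, and GFP_min (3 samples) holds CD11b+Gr1+ cells with negative or low signal. Total RNA was measured on Affymetrix expression arrays, and the comparison asks how the lysosomal transcripts of the reporter-high cells differ from those of the reporter-low cells. The sources used here do not give ages or how many mice stand behind a sample. The sorted-cell label reads Gr1+ for all 6 samples, but the description of GFP_min replicate b reads Gr1-. Nothing in the labels says that the replicates came from separate mice, so the spread behind each p-value is that of these 6 samples and may be technical.

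Lysosomes are acidic organelles in which hydrolases break down sugars, lipids, proteins and nucleic acids delivered by endocytosis, phagocytosis and autophagy. The V-ATPase pumps protons into them, heavily glycosylated membrane proteins line their inner face, and small activator proteins present lipids to the enzymes. The transcription factor TFEB and its relatives bind an E-box-like element, known as the CLEAR element, in the promoters of many lysosomal genes, and phagocytes such as monocytes and neutrophils carry large amounts of lysosomal or lysosome-related content.

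The promoter stretches below are shown because the E-box core CACGTG is common among these genes. It lies both in genes that were lower in GFP_plus and in genes that did not pass the test. The search was for this core and for GTCACGTG, not for a whole CLEAR element. Each stretch was read from RefSeq promoter windows of GRCm38.p6, which run from 250 bases before to 50 bases after the gene start. It is written 5′ to 3′ on the gene's strand. It ends 30 bases after its last CACGTG or, where the start comes sooner, at the start. So the stretches of Glb1, Naglu and Mcoln1 end before the start, and that of Atp6v0d1 ends just after the motif that spans it. Capitals mark CACGTG, the palindromic E-box core, and its extension GTCACGTG on either strand, which reads CACGTGAC where it lies on the opposite strand.
Lamp1, chr8:13159070-13159160, plus strand: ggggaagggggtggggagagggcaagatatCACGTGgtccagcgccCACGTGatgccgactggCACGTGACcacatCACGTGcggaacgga
Glb1, chr9:114401000-114401065, plus strand: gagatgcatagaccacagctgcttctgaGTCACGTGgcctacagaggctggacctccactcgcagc
Naglu, chr11:101069991-101070056, plus strand: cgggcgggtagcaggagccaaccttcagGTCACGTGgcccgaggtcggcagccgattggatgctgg
Arsa, chr15:89477425-89477470, minus strand: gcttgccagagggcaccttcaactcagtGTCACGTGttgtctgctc
Mcoln1, chr8:3500418-3500509, plus strand: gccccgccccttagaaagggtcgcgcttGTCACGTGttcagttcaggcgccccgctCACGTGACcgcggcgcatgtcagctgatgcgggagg
Atp6v0b, chr4:117887330-117887395, minus strand: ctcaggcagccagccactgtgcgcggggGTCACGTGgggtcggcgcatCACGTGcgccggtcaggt
Atp6v0d1, chr8:105566060-105566097, minus strand: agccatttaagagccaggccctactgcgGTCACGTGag
The first 4 of these genes were lower in GFP_plus cells and the other 3 did not pass the test. Members that hold the core but are not shown are Gla, Sgsh and Atp6v1a, which did not pass, and Gaa, which was lower.

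Lysosomal transcripts were more often lower than higher in GFP_plus cells on the deposited log2 scale. Of the 38 genes, 17 were lower at a limma adjusted p under 0.05 and 5 were higher, and 16 did not pass. That makes 44.7% lower and 13.2% higher, against 27.6% lower and 21.0% higher over all tested genes. The median difference, GFP_plus minus GFP_min, was −0.20 over the 38 genes and 0.00 over all tested genes. All 3 GFP_plus arrays lay below all 3 GFP_min arrays for 19 genes, where the share over all tested genes was 32.1%, and above them for 7 genes, where it was 27.2%. Differences of at least 1 log2 unit were about as frequent as over all tested genes. Of the 38 genes, 3 were lower by that much (Glb1, Npc2 and Cd68), close to the share of 8.74% over all tested genes. Of the 38, 0 were higher by that much, where the share over all tested genes was only 1.52%. The members' replicates were close, with a median SD of 0.09 log2 units in GFP_plus and 0.10 in GFP_min, and a median SE of the difference of 0.08.

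**Figure D1:**
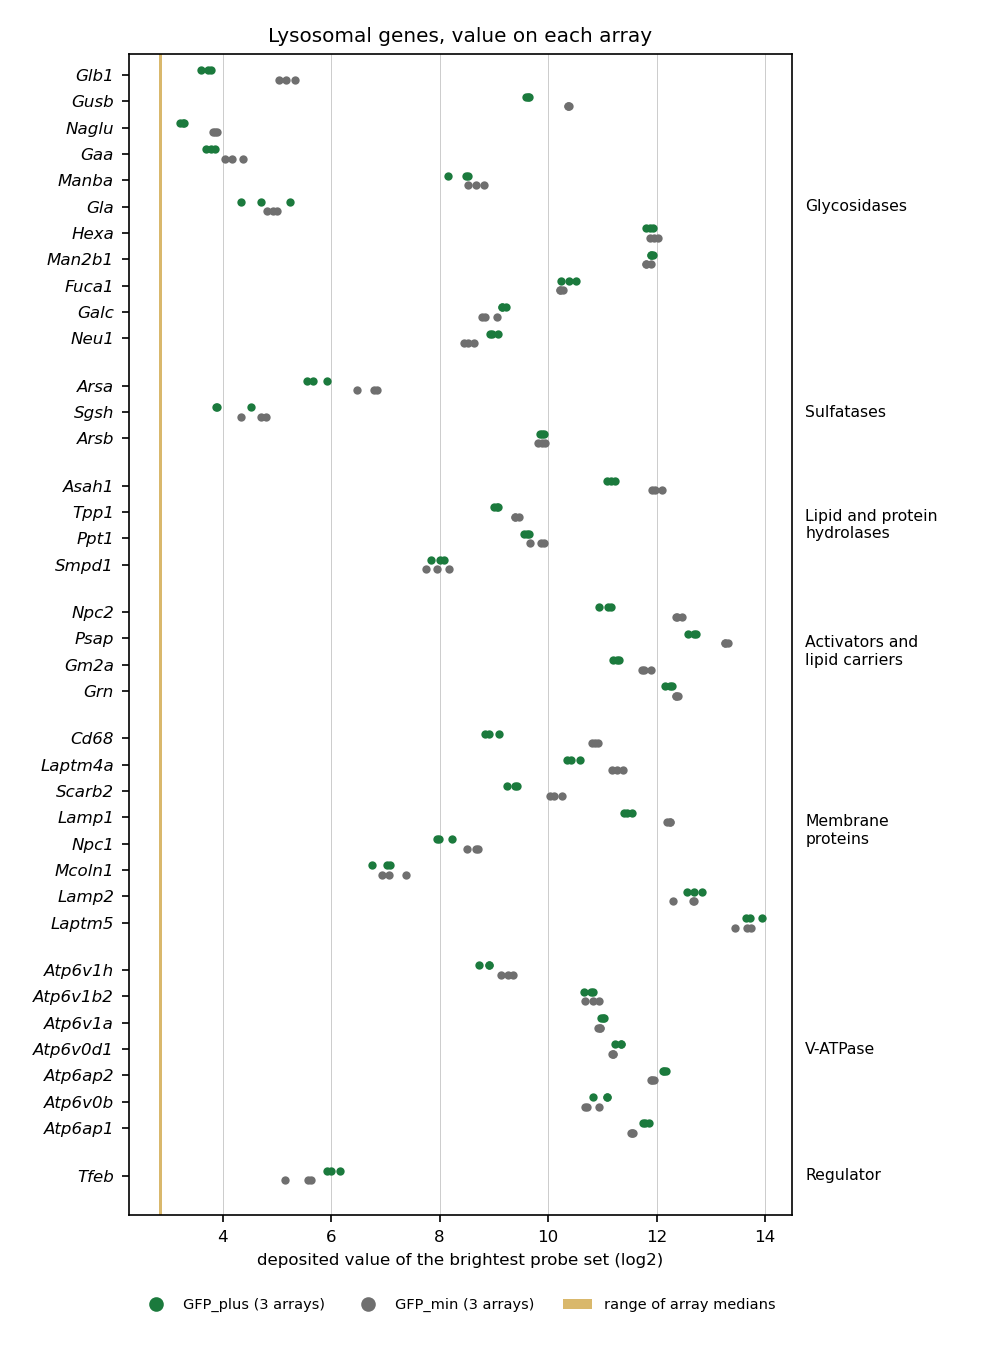
Deposited log2 value of the brightest probe set of each of the 38 lysosomal genes on each array, with 3 GFP_plus arrays in green above 3 GFP_min arrays in grey, and the range of the array medians (2.82 to 2.88) as a vertical band. Each gene is to be read along its own line, and the groups stand apart in 19 genes with GFP_plus lower and in 7 with GFP_plus higher.

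These shares depend on the scale, since centring each array on the level of chosen probe sets moves the difference of every gene by the same amount. Centring on the array's median level of all tested probe sets added 0.20 to each difference. The median difference over all tested genes was 0.00 before this step, so it does not set their typical difference to 0. Centring on the mean level of 44 ribosomal protein genes added 0.50, while centring on 24 probe sets of poly-A control RNAs changed it by −0.41. Of the 17 lower calls, 10 held under all of these: Glb1, Gusb, Arsa, Asah1, Psap, Npc2, Lamp1, Scarb2, Laptm4a and Cd68. Of the 5 higher calls, 0 did. The differences ran from −1.92 in Cd68 to 0.57 in Tfeb, and their order is the same on each of these centred scales. Among the role groups below, the medians of the sulfatases, of the cofactors and of the membrane proteins lay under −0.50 and so stayed below 0 on each scale, while those of the glycosidases, of the lipid and protein hydrolases and of the V-ATPase changed sign on at least 1.

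**Figure D2:**
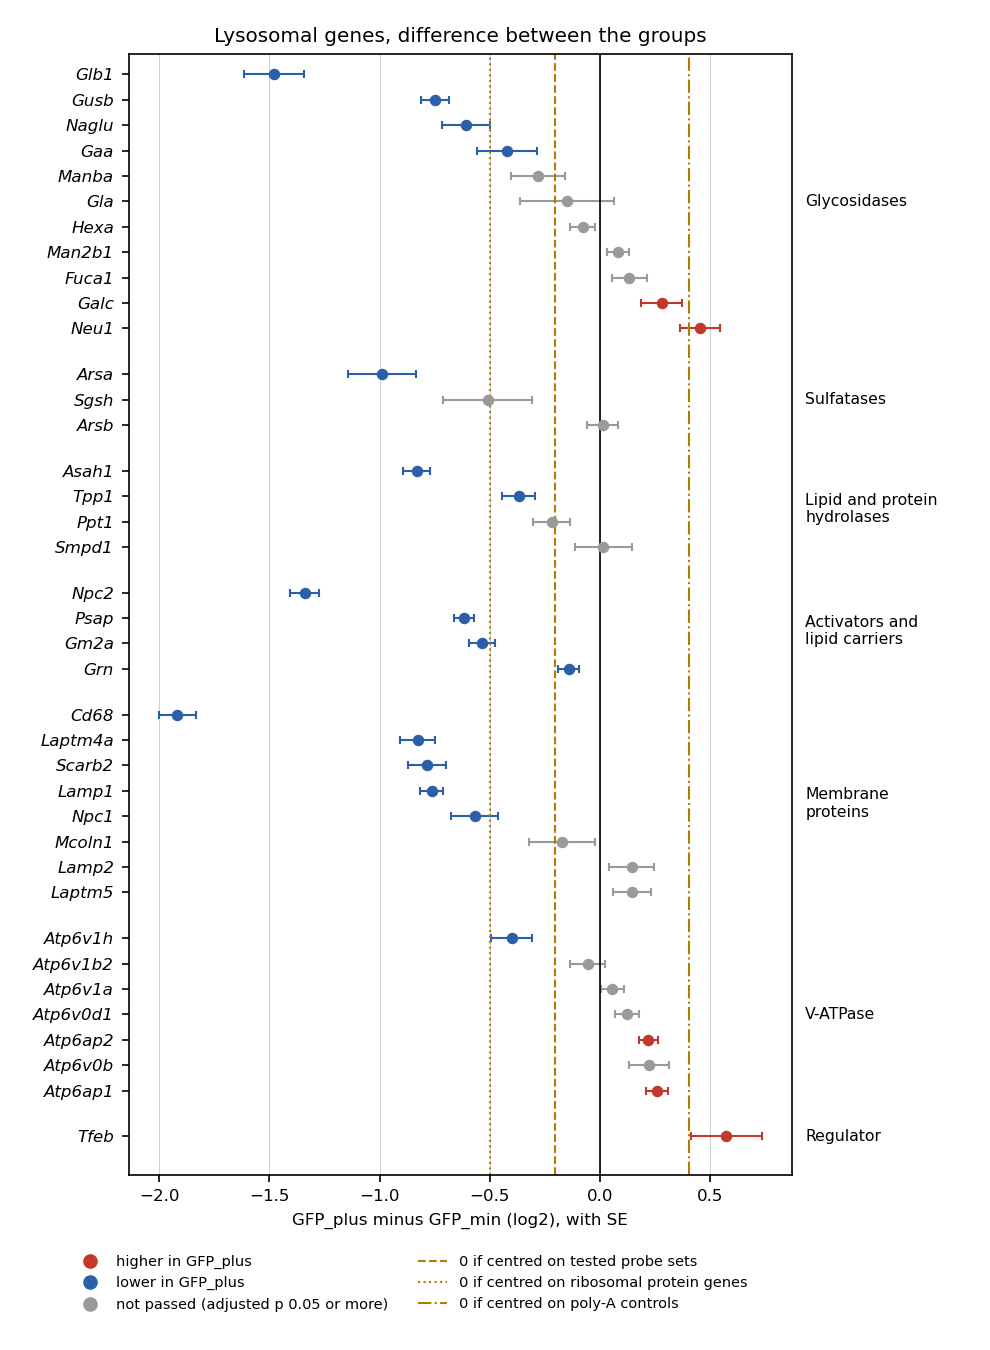
Difference between the groups for each of the 38 lysosomal genes, GFP_plus minus GFP_min in log2 units, as points with the SE of the limma fit, coloured by call and grouped by role. The dashed, dotted and dash-dotted vertical lines show where 0 would lie under the 3 centrings (−0.20, −0.50 and 0.41), and the 10 genes lower under all of them lie left of the dotted line.

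Neutrophil markers were high in both groups, and markers of several other cell types differed between them. Over all probe sets, the correlation was 0.995 to 0.997 within a group and 0.961 to 0.967 between the groups. Itgam, the gene of CD11b, averaged 11.84 ± 0.13 in GFP_plus and 11.58 ± 0.23 in GFP_min, and Hdc averaged 12.01 ± 0.06 in GFP_plus and 11.19 ± 0.03 in GFP_min (log2, mean ± SD, n = 3 each). The log2 of the summed linear level of 11 neutrophil markers was 17.47 to 17.55 in GFP_plus and 17.40 to 17.44 in GFP_min, with 5 of 11 higher and 0 lower. On the deposited scale all 14 monocyte markers were lower in GFP_plus, with a median difference of −5.26 and a summed level of 14.08 to 14.16 in GFP_plus against 16.10 to 16.14 in GFP_min. Each of these markers lay above the array median on all 6 arrays, and the falls were uneven. Ccr2, Cx3cr1 and Ly86 were lower in GFP_plus by more than 5 log2 units, while Csf1r, Mpeg1 and Lgals3 differed by −1.22, −0.79 and −0.21. The difference of Lgals3 is smaller in size than the 0.50 that ribosomal centring adds, so its sign depends on the scale. Of 8 markers of resident macrophages, 5 were tested, with 3 higher and 1 lower, and their summed level was 8.94 to 9.14 in GFP_plus and 9.59 to 9.62 in GFP_min. Dendritic cell markers were lower in 3 of 5 tested and higher in 1 (median −3.10), with a summed level of 7.04 to 7.30 in GFP_plus and 9.13 to 9.36 in GFP_min. Of the tested ones, Cd209a, which was lower, and Siglech, which did not pass, lay above the array median on the GFP_min arrays only. Neutrophil precursor markers were higher in 4 of 4 (median 1.40), with a summed level of 13.96 to 14.15 in GFP_plus and 12.78 to 12.84 in GFP_min. All 5 tested basophil and mast cell markers were higher too (7.87 to 8.32 in GFP_plus and 5.24 to 5.25 in GFP_min), among them the basophil protease gene Mcpt8, at 7.62 ± 0.31 in GFP_plus and 3.41 ± 0.10 in GFP_min. Of these, Cpa3 and Fcer1a lay above the array median on the GFP_plus arrays only, so they entered the test through the group where they were high. Both tested eosinophil markers (2 of 6 listed), Prg2 and Siglecf, were also higher, and the summed level of the list was 8.72 to 9.03 in GFP_plus and 7.36 to 7.54 in GFP_min. The listed Epx, Ccr3, Il5ra and Prg3 were too dim to be tested, lying at or below the array median on nearly all arrays. Lymphoid and erythroid markers were few and dim: 1 of 3 tested B cell markers and 2 of 2 T and NK cell markers were lower, and 1 of 1 erythroid marker was higher. That erythroid marker, Car1, lay above the array median on the GFP_plus arrays only and so entered the test through them. The 3′ to 5′ gap of the Gapdh control probe sets, a sign of RNA or labelling quality, was 0.59 to 0.66 in GFP_plus and 0.26 to 0.37 in GFP_min. The part of these marker and quality differences in the lysosomal results was not tested, and in sorted bulk RNA fewer cells of a type and less RNA per cell cannot be told apart.

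Among the glycosidases, which cleave sugars from glycoproteins, glycolipids and glycosaminoglycans, 4 of 11 were lower and 2 were higher, with a median of −0.15. Glb1, the acid β-galactosidase, read 3.78, 3.72 and 3.59 on the GFP_plus arrays, against 5.16, 5.33 and 5.04 on the GFP_min arrays. The groups did not overlap, and the level was 2.79-fold lower in GFP_plus (difference −1.48, SE 0.14, limma adjusted p = 1.99e-05), though the GFP_plus values lay within 1 log2 unit of the array medians. Gusb, β-glucuronidase, read 9.60, 9.66 and 9.63 in GFP_plus, against 10.36, 10.37 and 10.39 in GFP_min. The replicates of each group were within 0.1 of each other, and the groups did not overlap (−0.75, SE 0.06, adjusted p = 1.00e-05). β-glucuronidase is also found in the azurophil granules of neutrophils.

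Naglu, which removes N-acetylglucosamine from heparan sulfate, read 3.27, 3.29 and 3.21 in GFP_plus and 3.83, 3.90 and 3.87 in GFP_min (−0.61, SE 0.11, adjusted p = 0.00125). Gaa, the acid α-glucosidase that degrades glycogen, read 3.69, 3.79 and 3.86 in GFP_plus and 4.18, 4.38 and 4.05 in GFP_min. Neither gene's groups overlapped, but both lay close to the array medians. The difference of Gaa (−0.42, SE 0.13, adjusted p = 0.0280) turned to 0.078 with ribosomal centring. It missed the threshold without GFP_plus replicate a (adjusted p = 0.0941), GFP_plus replicate b (0.0594), GFP_min replicate a (0.0599) or GFP_min replicate b (0.0883).

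Neu1, the sialidase that trims sialic acid, was the glycosidase with the largest higher difference in GFP_plus. It read 8.97, 8.92 and 9.08 in GFP_plus, against 8.64, 8.44 and 8.52 in GFP_min (0.46, SE 0.09, adjusted p = 0.00254), with no overlap. A dimmer probe set of Neu1 had a difference of −0.04 (adjusted p = 0.866). Galc, the galactosylceramidase that acts on myelin-type galactolipids, read 9.23, 9.15 and 9.16 in GFP_plus and 8.84, 9.06 and 8.79 in GFP_min, again without overlap. Its difference of 0.28 (SE 0.09, adjusted p = 0.0321) turned to −0.12 with poly-A centring, and a dimmer probe set of Galc had 0.09 (adjusted p = 0.491). The call was lost in 5 of 6 fits that left out 1 sample (adjusted p between 0.0512 and 0.120) and was kept without GFP_min replicate b.

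NEU1, GLB1 and cathepsin A are known to form 1 lysosomal complex in which cathepsin A protects the other enzymes. Their transcripts differed in opposite directions here: Glb1 by −1.48, Ctsa, the gene of cathepsin A, by −1.33 (9.75 ± 0.04 in GFP_plus and 11.08 ± 0.05 in GFP_min, SE 0.06, adjusted p = 1.50e-07), and Neu1 by 0.46. The other glycosidases did not pass. Hexa, the α subunit of β-hexosaminidase, read 11.88, 11.80 and 11.93 in GFP_plus and 11.87, 12.02 and 11.95 in GFP_min, and the groups overlapped (−0.08, SE 0.06, adjusted p = 0.280). Gla, α-galactosidase A, had the widest spread within GFP_plus of all members, at 5.25, 4.71 and 4.33 in GFP_plus and 4.82, 4.998 and 4.93 in GFP_min (−0.15, SE 0.21). Manba, β-mannosidase, did not overlap between the groups but missed the threshold (−0.28, adjusted p = 0.0871). Man2b1, α-mannosidase, and Fuca1, α-fucosidase, had differences of 0.08 and 0.13.

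Of the sulfatases and sulfamidases, which strip sulfate from glycolipids and glycosaminoglycans, 1 of 3 was lower, with a median of −0.51. Arsa, arylsulfatase A, which acts on sulfatide, read 5.93, 5.67 and 5.55 in GFP_plus, against 6.84, 6.78 and 6.48 in GFP_min. It was 1.98-fold lower with no overlap (−0.99, SE 0.15, adjusted p = 5.83e-04). Sgsh, the sulfamidase of heparan sulfate, read 3.87, 3.90 and 4.53 in GFP_plus and 4.71, 4.79 and 4.33 in GFP_min (−0.51, SE 0.20, adjusted p = 0.0658). GFP_plus replicate c and GFP_min replicate c crossed, and the adjusted p was 0.00929 without the first and 0.0420 without the other. Arsb, arylsulfatase B, which acts on dermatan sulfate, averaged 9.89 ± 0.03 in GFP_plus and 9.88 ± 0.07 in GFP_min. Sumf1, whose product activates sulfatases by making their catalytic formylglycine, was singled out after its value was seen: it averaged 6.58 ± 0.59 in GFP_plus and 8.40 ± 0.48 in GFP_min (−1.82, SE 0.29, adjusted p = 7.44e-04).

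Among the enzymes acting on lipids and proteins, 2 of 4 were lower and 0 higher. Asah1, acid ceramidase, read 11.23, 11.09 and 11.16 in GFP_plus, against 11.96, 12.09 and 11.92 in GFP_min. The groups were far apart relative to their spread, and the level was 1.78-fold lower (−0.83, SE 0.06, adjusted p = 4.23e-06). Tpp1, a tripeptidyl peptidase, read 8.997, 9.06 and 9.08 in GFP_plus and 9.47, 9.38 and 9.39 in GFP_min. Its difference of −0.37 (SE 0.08, adjusted p = 0.00289) was seen without overlap, but turned to 0.13 with ribosomal centring. Smpd1, acid sphingomyelinase, which makes ceramide, the substrate of acid ceramidase, averaged 7.97 ± 0.13 in GFP_plus and 7.96 ± 0.21 in GFP_min. Ppt1, which removes palmitate from proteins, read 9.65, 9.61 and 9.55 in GFP_plus and 9.88, 9.92 and 9.67 in GFP_min, just short of the threshold (−0.22, SE 0.08, adjusted p = 0.0547).

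All 4 activators, lipid carriers and soluble cofactors were lower in GFP_plus, with a median of −0.58. Npc2, the soluble carrier that takes up cholesterol inside lysosomes, read 11.16, 10.94 and 11.10 in GFP_plus, against 12.38, 12.48 and 12.36 in GFP_min. It was 2.53-fold lower (−1.34, SE 0.07, adjusted p = 2.34e-07), and its dimmer probe sets differed by −1.73, −3.74 and −0.43, of which the last did not pass. Psap, the precursor of the saposins that present sphingolipids to their hydrolases, read 12.73, 12.58 and 12.69 in GFP_plus, against 13.27, 13.32 and 13.26 in GFP_min. There was no overlap (−0.62, SE 0.05, adjusted p = 4.58e-06), and a second probe set of Psap had a difference of −1.21.

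Gm2a, the activator that lifts GM2 ganglioside for β-hexosaminidase, read 11.32, 11.21 and 11.26 in GFP_plus and 11.73, 11.90 and 11.77 in GFP_min (−0.53, SE 0.06, adjusted p = 6.82e-05). Its enzyme partner Hexa, above, did not pass. Grn, the precursor of the granulins, read 12.29, 12.16 and 12.25 in GFP_plus and 12.40, 12.37 and 12.36 in GFP_min. Grn had the smallest difference among the lower calls (−0.14, SE 0.05, adjusted p = 0.0324). It turned to 0.060 with centring on tested probe sets and to 0.36 with ribosomal centring. The call for Grn was kept only without GFP_plus replicate a, and the other leave-outs gave adjusted p between 0.0525 and 0.101. Dimmer probe sets of Grn differed by −0.20 and −0.42, both lower.

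Membrane proteins had a median of −0.67, with 5 of 8 lower and 0 higher. Cd68, a mucin-like protein of the lysosome-associated membrane protein family that is widely used as a marker of monocytes and macrophages, had the largest difference of all members. It read 8.83, 8.91 and 9.10 in GFP_plus, against 10.81, 10.92 and 10.86 in GFP_min, and was 3.78-fold lower (−1.92, SE 0.08, adjusted p = 1.05e-07). The gap between the groups was larger than the spread within either. Monocyte markers moved with it (14 of 14 lower on the deposited scale), and their part in it was not tested.

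Lamp1, one of the main glycoproteins of the lysosomal membrane, read 11.54, 11.39 and 11.46 in GFP_plus, against 12.24, 12.24 and 12.20 in GFP_min (−0.76, SE 0.05, adjusted p = 2.49e-06). Lamp2, its closest relative, which also serves chaperone-mediated autophagy, read 12.70, 12.83 and 12.57 in GFP_plus, against 12.67, 12.30 and 12.70 in GFP_min. So Lamp1 was separated between the groups and Lamp2 was not (0.14, SE 0.10, adjusted p = 0.282), and all 4 probe sets of Lamp2 missed the threshold, with differences from −0.06 to 0.24. The same held for the LAPTM pair: Laptm4a read 10.58, 10.35 and 10.43 in GFP_plus, against 11.17, 11.39 and 11.28 in GFP_min (−0.83, SE 0.08, adjusted p = 2.59e-05), while Laptm5, a protein of blood cells that promotes degradation of surface receptors, averaged 13.77 ± 0.16 in GFP_plus and 13.62 ± 0.15 in GFP_min (0.15, adjusted p = 0.193). The dimmest tested probe set of Laptm5 was lower (−0.49, adjusted p = 0.00441), so its probe sets disagreed. The difference between these pairs was not itself tested.

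Scarb2, the receptor that carries glucocerebrosidase to lysosomes, read 9.38, 9.25 and 9.43 in GFP_plus, against 10.03, 10.26 and 10.12 in GFP_min (−0.78, SE 0.09, adjusted p = 5.71e-05). Npc1, the membrane protein that exports the cholesterol handed on by NPC2, read 7.996, 8.22 and 7.95 in GFP_plus and 8.70, 8.66 and 8.50 in GFP_min (−0.57, SE 0.11, adjusted p = 0.00185). Thus both genes of the cholesterol export pair, Npc1 and Npc2, were lower without overlap. Mcoln1, the calcium channel TRPML1, read 7.04, 6.76 and 7.08 in GFP_plus and 6.93, 7.39 and 7.07 in GFP_min, with overlap (−0.17, SE 0.15, adjusted p = 0.371).

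Of the V-ATPase genes, 2 of 7 were higher and 1 was lower, and their median was 0.12. Atp6ap1, an accessory protein needed for assembly and trafficking of the pump, read 11.87, 11.79 and 11.75 in GFP_plus, against 11.56, 11.54 and 11.52 in GFP_min (0.26, SE 0.05, adjusted p = 0.00214). Atp6ap2, the other accessory protein, also known as the prorenin receptor, read 12.12, 12.13 and 12.18 in GFP_plus, against 11.91, 11.90 and 11.95 in GFP_min (0.22, SE 0.04, adjusted p = 0.00271). Both were small differences without overlap, higher by 1.20-fold and 1.16-fold, and both turned under poly-A centring, to −0.15 and −0.19. Atp6v1h, a regulatory subunit of the cytosolic V1 part, was the lower one, at 8.91, 8.91 and 8.72 in GFP_plus and 9.13, 9.35 and 9.26 in GFP_min (−0.40, SE 0.09, adjusted p = 0.00595), and it turned to 0.099 with ribosomal centring. A dimmer probe set of Atp6v1h differed by −0.36 (adjusted p = 0.123).

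The remaining pump subunits did not pass. Atp6v0d1, a subunit that joins the membrane part V0 to the stalk, and Atp6v1a, the catalytic subunit, were above GFP_min on all 3 GFP_plus arrays but by only 0.12 (adjusted p = 0.0879) and 0.06 (adjusted p = 0.416). The proton-carrying V0 subunit Atp6v0b read 11.09, 10.82 and 11.08 in GFP_plus and 10.67, 10.93 and 10.72 in GFP_min (0.22, SE 0.09, adjusted p = 0.0763), and a dimmer probe set of it was higher by 0.40 (adjusted p = 0.0225). Atp6v1b2, a nucleotide-binding subunit, averaged 10.76 ± 0.09 in GFP_plus and 10.81 ± 0.13 in GFP_min. A second probe set of Atp6v1a was lower (−0.26, adjusted p = 0.0228), so the sign of Atp6v1a depended on the probe set. Among 9 further V-ATPase subunits tested, of 12 listed, 3 were higher and 0 lower, the median being 0.11. These were Atp6v0a1 (6.26 ± 0.29 in GFP_plus and 5.08 ± 0.37 in GFP_min, difference 1.17, SE 0.21, adjusted p = 0.00151), Atp6v1g1 (0.43) and Atp6v1c1 (0.30, and −0.10 with poly-A centring).

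Tfeb, the regulator of lysosomal genes, read 5.99, 5.92 and 6.16 in GFP_plus, against 5.58, 5.63 and 5.15 in GFP_min. It was higher without overlap (0.57, SE 0.16, adjusted p = 0.0163), 1.49-fold. The call was lost without GFP_plus replicate c (0.51, adjusted p = 0.0521) and without GFP_min replicate c (0.42, adjusted p = 0.0621), and with poly-A centring (0.17). Of its relatives in the same family, Mitf and Tfec were lower. Mitf averaged 7.34 ± 0.25 in GFP_plus and 8.36 ± 0.14 in GFP_min (−1.02, SE 0.14, adjusted p = 2.43e-04), and Tfec averaged 6.17 ± 0.06 in GFP_plus and 7.40 ± 0.06 in GFP_min (−1.23, SE 0.11, adjusted p = 1.73e-05). Tfe3, singled out after its value was seen, was higher like Tfeb, by 0.36 (SE 0.13, adjusted p = 0.0476), and differed by −0.045 with poly-A centring. The sizes of Tfeb and Tfe3 were not compared by a test. The call for Tfe3 was lost in 5 of 6 fits that left out 1 sample (adjusted p between 0.0667 and 0.158) and was kept without GFP_min replicate b. Of 19 tested relatives and nutrient-sensing genes, 5 were lower and 3 higher, the median being −0.07. Rraga, a Rag GTPase, was lower (−0.55), and Fnip2, a partner of folliculin, was higher by 0.80.

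The E-box core was more frequent in the members' promoters than among all tested genes. That is a description and not an independent result, since the E-box-like CLEAR element was itself defined on lysosomal genes. A promoter window was found for 35 of the 39 genes, Cd63 among them. CACGTG was present in 11 of the 35 (31.4%), in 11.9% of the 8823 tested genes with a window and in 8.09% of all 27025 genes with one. Windows have 1 fixed length, and their median GC content was 56.3% for the members, 60.7% for tested genes and 52.8% for all genes. GTCACGTG on either strand was present in 9 of the 35 (25.7%), in 4.95% of tested genes and in 2.55% of all genes. The lists outside the members varied. With a window, CACGTG was in 1 of 13 other hydrolases (7.69%), 1 of 8 other V-ATPase subunits (12.5%), 4 of 16 other membrane proteins (25.0%) and 4 of 9 cathepsins (44.4%). It was also in 5 of 14 tagging and sorting genes (35.7%), 6 of 19 TFEB relatives and nutrient-sensing genes (31.6%) and 2 of 12 fusion and movement genes (16.7%). In the same order, GTCACGTG was in 7.69%, 0%, 18.8%, 22.2%, 35.7%, 10.5% and 16.7%. So neither motif was particular to the members.

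The motif was found among members with and without a difference. GTCACGTG was in 4 of 14 lower members with a window, in 5 of 15 that did not pass and in 0 of 5 that were higher. This split leaves out Cd63, which has a window but no call. Lamp1 has 4 cores, the first beginning 61 and the last 15 bases before the gene start. Single copies begin 48 bases before the start in Glb1, 73 in Naglu and 16 in Arsa. Mcoln1, with copies 71 and 45 bases before the start, did not pass. Gla and Sgsh hold the extended motif too and did not pass, while Gaa and Atp6v1a hold the core alone. Of 437 tested genes with GTCACGTG in their window, 29.7% were lower and 21.5% higher, against 27.6% and 21.1% of all tested genes with a window.

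Other genes of the lysosome, taken from lists by function, showed which neighbours of the members moved. Among 16 other hydrolases tested, 8 were lower and 3 higher, with a median of −0.28. Plbd2, among the lower ones, entered the test only through the GFP_min arrays, where it was high. Lgmn, the asparagine endopeptidase legumain, averaged 3.71 ± 0.23 in GFP_plus and 7.28 ± 0.29 in GFP_min (−3.57, SE 0.18, adjusted p = 3.34e-07), and Naaa, an acid amidase of fatty acid ethanolamides, differed by −3.07. Scpep1, a serine carboxypeptidase, averaged 2.70 ± 0.49 in GFP_plus and 8.07 ± 0.72 in GFP_min (−5.37, SE 0.35, adjusted p = 1.59e-06), and its GFP_plus values lay near the array medians. Ids, which removes sulfate from heparan and dermatan sulfate, was lower (−1.15). Hgsnat, which works between Naglu and Sgsh in heparan sulfate breakdown and was singled out for that, differed by −0.20 (adjusted p = 0.0188) and by 0.30 with ribosomal centring. Its call was lost without GFP_plus replicate a, GFP_plus replicate c, GFP_min replicate b or GFP_min replicate c (adjusted p between 0.0510 and 0.0651).

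Cathepsins, the lysosomal proteases, had a median of −1.14, with 8 of 11 tested lower and 2 higher. Ctsc averaged 9.73 ± 0.07 in GFP_plus and 12.73 ± 0.04 in GFP_min (−3.01), and Ctss, which trims the class II invariant chain, averaged 10.50 ± 0.09 in GFP_plus and 13.21 ± 0.05 in GFP_min (−2.71). Ctsh was lower too (−1.11). Ctsd, singled out after its value was seen, was one of the 2 higher ones, at 11.50 ± 0.05 in GFP_plus and 10.69 ± 0.01 in GFP_min (0.82, SE 0.05, adjusted p = 1.86e-06). Among 19 tested membrane proteins and transporters outside the 39 genes, 8 were lower and 4 higher, with a median of −0.02. The difference was −2.13 for Tmem192, −1.59 for the nucleoside transporter Slc29a3, −1.05 for the phosphoinositide phosphatase gene Pip4p1 and −0.99 for the histidine and peptide transporter Slc15a4. In contrast, Slc15a3, singled out after its value was seen, was higher by 0.76. The summed level of this list was 13.23 to 13.28 in GFP_plus and 13.03 to 13.04 in GFP_min.

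Genes that tag and deliver hydrolases were mixed. Of 17 tested, 5 were lower and 2 higher, with a median of −0.01. The receptors for mannose 6-phosphate, the tag on lysosomal enzymes, moved in opposite directions: M6pr averaged 9.99 ± 0.04 in GFP_plus and 10.65 ± 0.03 in GFP_min (−0.66, SE 0.06, adjusted p = 2.01e-05), and Igf2r averaged 9.07 ± 0.20 in GFP_plus and 8.31 ± 0.16 in GFP_min (0.76, SE 0.12, adjusted p = 6.93e-04). Nagpa, the enzyme that uncovers the tag, differed by −1.45, and Gnptab, a subunit of the enzyme that adds it, singled out after its value was seen, by −0.96 (adjusted p = 0.0157). Without GFP_plus replicate c the difference of Gnptab was −0.63, and without GFP_min replicate c it missed the threshold (−0.87, adjusted p = 0.0540). Ap1m1, an adaptor subunit for sorting at the trans-Golgi, was higher by 0.39 and stood at −0.017 with poly-A centring. Of 13 tested genes for lysosome fusion and movement, 5 were lower and 1 higher, with a median of −0.14: the SNARE genes Stx8, Vamp7 and Stx7 differed by −0.66, −0.53 and −0.30, the last turning to 0.20 with ribosomal centring, and Plekhm1, an adaptor of late endosome fusion, was higher by 0.51.

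**Figure D3:**
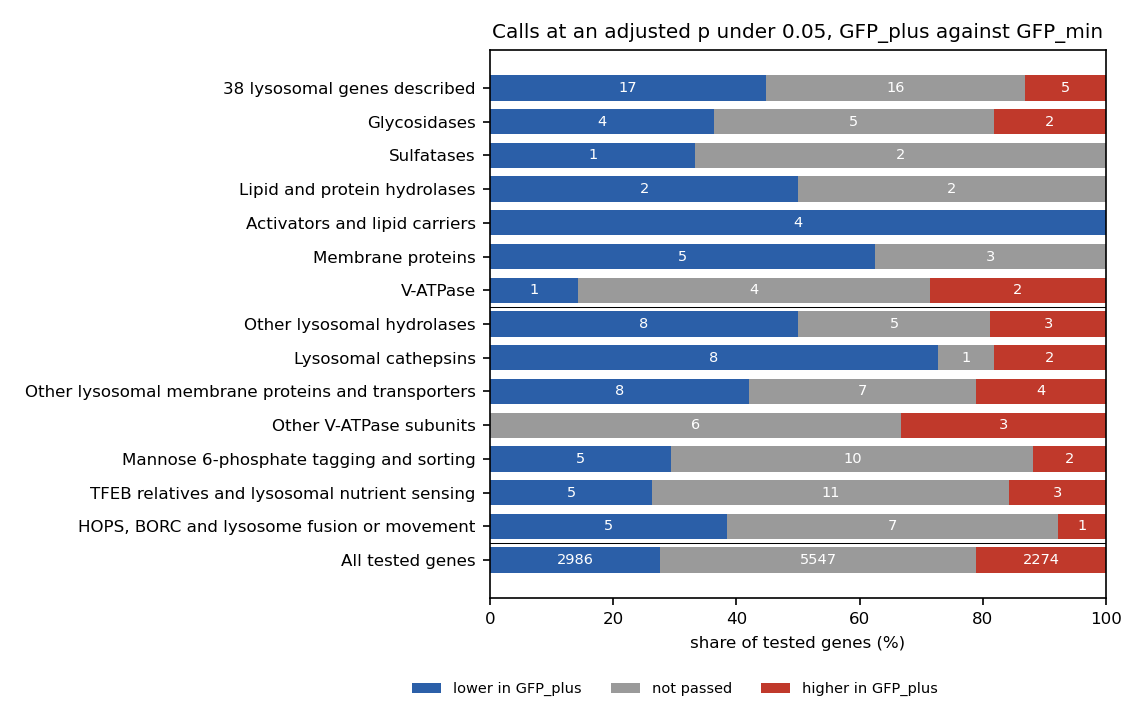
Share of tested genes, in percent, that were lower in GFP_plus (blue), did not pass (grey) or were higher in GFP_plus (red) at a limma adjusted p under 0.05, with the number of genes printed in each bar, for the 38 lysosomal genes, their role groups, 7 further lists and all tested genes. Lower calls make up 17 of the 38 genes and 4 of 4 activators and carriers, and 0 of 9 other V-ATPase subunits.

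Several members have more than 1 probe set, which allows a check of each call within the gene. Of the 38 genes, 25 had more than 1 probe set, though in 16 of the 38 only 1 was tested. Where several were tested, 14 genes had the same outcome in all of them, 8 had some called and some not, and 0 had opposite calls. Among the 14, Atp6v1b2, Fuca1, Lamp2, Mcoln1, Ppt1 and Smpd1 had no probe set that passed, so they bear on no lower or higher call. The second probe set of Gusb differed by −1.83, beside −0.75 for the brightest. The second one of Tpp1 differed by −0.72, beside −0.37, that of Scarb2 by −0.35, beside −0.78, and that of Gm2a by −0.74, beside −0.53. A second probe set of Man2b1, whose brightest did not pass, was higher by 0.54 (9.95 ± 0.03 in GFP_plus and 9.41 ± 0.04 in GFP_min, adjusted p = 1.62e-04).

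**Figure D4:**
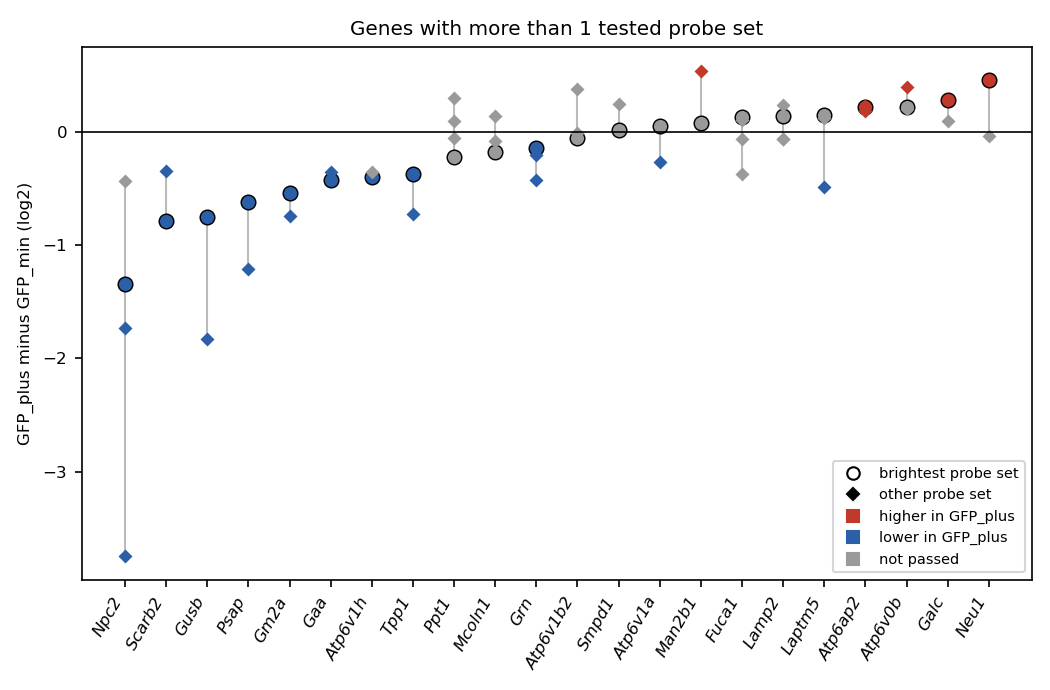
Difference between the groups, GFP_plus minus GFP_min in log2 units, for every tested probe set of the genes with more than 1, with the brightest probe set of a gene as a circle and its others as diamonds, coloured by call. Probe sets of 1 gene never had opposite calls, and the spread within a gene was widest for Npc2, from −3.74 to −0.43.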

How the data were processed

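Cells were sorted, their total RNA was taken up with an RNeasy Micro kit, and 100 ng went into a biotin labelling by 3' IVT, per the labels. What the authors deposited is 1 table of log2 expression values for 45101 probe sets on 6 arrays. GCRMA is the tool named in the submitters' processing notes, and the sources used here give neither its version nor its settings. The range of the values shows a log2 scale. They were used as deposited, with no depth to give, and the number of arrays limits the precision.

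Groups and replicate letters came from the titles. Genes were named from the platform annotation: 34945 probe sets had 1 symbol, 932 several and 9160, controls aside, none listed. Tested were the 22956 probe sets, the 64 controls aside, with a value over the array's own median on 3 or more of 6 arrays. GFP_plus minus GFP_min was tested by limma 3.58.1 (R 4.3.3), using lmFit and eBayes with a trend on intensity. P-values were adjusted by Benjamini-Hochberg over the 22956 probe sets and called under 0.05, and the fit was tested on simulated data. A gene stands for its brightest probe set of a single symbol. Fold changes are 2 to the power of the size of the log2 difference.

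The members and gene lists were chosen with earlier results of these data known, so counts over them are descriptions. Named outside the members were up to 4 genes of each further list with the smallest adjusted p, and those singled out are said to be so. Alternatives changed the filter, variance model, array weights, normalization, centring, probe sets, size threshold and replicate block, and left out each sample in turn. Promoter windows are RefSeq's, of GRCm38.p6, matched by symbol, and the expression table gave no coordinates. Asah1, Npc1, Atp6v1b2 and Atp6v1h are named without a window. Plots were made in Python 3.11.15 with matplotlib 3.10.9.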

Additional observations from a re-analysis of the deposited data

How the results depend on the processing

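On the deposited scale 17 members were lower and 5 higher, with a median of −0.20, and 2986 of all tested genes were lower and 2274 higher. Centring on tested probe sets gave 13 members lower and 13 higher with a median of 0.0051, and 2089 genes lower and 4471 higher. Ribosomal centring gave 10 lower and 18 higher, a median of 0.30, and 1264 genes lower and 7189 higher. Poly-A centring gave 31 lower and 0 higher, a median of −0.60, and 6026 genes lower and 420 higher. With at least 1 log2 unit required, 3 members were lower and 0 higher, and 945 genes lower and 164 higher. Without the intensity trend 3 members were higher. The median was −0.15 with array weights and −0.36 without probe sets of shared sequence (suffix _x_at or _s_at). Leaving out 1 sample at a time gave 15 to 18 members lower, 3 to 6 higher and medians from −0.29 to −0.16. Of the calls, 15 lower and 3 higher were kept in all 6 leave-outs. The replicate block gave 15 members lower and 4 higher, and 2601 genes lower and 1736 higher. The deviations of same-letter samples correlated at −0.18, −0.30 and −0.22, which does not show that the letters pair the samples, and what the letters stand for was not tested. Gaa, Grn, Galc, Hgsnat and Tfe3 lost their calls with the block. Single genes changed sign as follows, and the cause was not tested beyond the shift that a centring adds. Ribosomal centring gave Hexa 0.42, Gaa 0.078, Gla 0.35, Manba 0.22, Ppt1 0.28, Tpp1 0.13, Grn 0.36, Mcoln1 0.33, Atp6v1b2 0.44, Atp6v1h 0.099, Stx7 0.20 and Hgsnat 0.30. Centring on tested probe sets gave Hexa 0.12, Gla 0.053, Grn 0.060, Mcoln1 0.028 and Atp6v1b2 0.15. Poly-A centring gave Galc −0.12, Man2b1 −0.32, Fuca1 −0.27, Arsb −0.39, Smpd1 −0.39, Lamp2 −0.26, Laptm5 −0.26, Atp6ap1 −0.15, Atp6ap2 −0.19, Atp6v0b −0.18, Atp6v0d1 −0.28, Atp6v1a −0.35, Atp6v1c1 −0.10, Ap1m1 −0.017 and Tfe3 −0.045. The mean over a gene's probe sets gave Fuca1 −0.049, Ppt1 0.033, Laptm5 −0.074, Atp6v1a −0.10 and Atp6v1b2 0.10. Mcoln1 was 0.14 without probe sets of shared sequence. Gla was 0.067 with array weights and 0.060 with quantile normalization, and Arsb was −0.0040 with quantile normalization. Leaving out 1 sample gave −0.39 to 0.066 for Gla, −0.024 to 0.046 for Arsb, −0.091 to 0.12 for Smpd1 and −0.13 to 0.0049 for Atp6v1b2. Low signal limits Naglu, Gaa, Glb1, Sgsh and Gla, whose mean GFP_plus levels were within 2 log2 units of the array medians.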
